A study of Mus musculus with 2 samples.

Results

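The genes described here are those of the thiol and metal-binding antioxidant systems: glutathione synthesis, glutathione peroxidases and transferases, glutaredoxins, thioredoxins, peroxiredoxins, superoxide dismutases, catalase, Nqo1, Hmox1 and the metallothioneins Mt1 and Mt2. They were picked by gene name on the array, with no threshold on their values, although earlier results of these data were known when the set was drawn up. The names gave 128 of 41174 probes, or 79 genes, and 49 of these genes, with 59 probes, were bright enough to be compared. RNA came from Lgr6-high cells, the brightly fluorescent dorsal skin cells of Lgr6-EGFP-ires-CreERT2 knock-in mice, and from Lgr5-high cells, the brightly fluorescent dorsal skin cells of Lgr5-EGFP-ires-CreERT2 knock-in mice. In both, green fluorescent protein is made under the promoter of a receptor for R-spondins, so each population is defined by reporter brightness and not by a cell surface marker. Each sort combined 3 mice, the age and sex of which are not given in the sources used here, and neither population is an untreated control. Both RNAs were hybridised together on each of 2 Agilent arrays, with Lgr6-high RNA in Cy5 on array 1 and in Cy3 on array 2.

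Glutathione is a small cysteine-containing peptide that cells hold in a reduced state. Glutathione peroxidases spend it to remove peroxides, and glutathione transferases join it to reactive compounds. Thioredoxin and the peroxiredoxins form a parallel chain driven by thioredoxin reductase, while metallothioneins bind zinc and copper through their many cysteines. In skin these systems face ultraviolet light, oxygen and chemicals from outside, and many of the genes answer to the transcription factor NRF2 or, for metallothioneins, to the metal-sensing factor MTF1.

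Whether the arrays hold separate RNA pools is not given in the labels, so both arrays were counted as 1 replicate per population with exchanged dyes and the populations were compared by size with no p-value. Every ratio below is the log2 ratio of Lgr6-high over Lgr5-high after background correction and within-array normalisation, given as the mean ± SD over n = 2 arrays. These SDs hold hybridisation and dye error, and whether they also hold a spread between RNA pools is not known. A gene was called when its mean ratio reached 1 (a 2-fold difference) and each array reached 0.5 in the same direction. A gene was measured when its probe was well above background in at least 1 population on both arrays, and 6193 genes on the array were. Ranges that do not overlap mean that both signals of 1 population lay above both signals of the other. With 2 arrays of 1 dye exchange this is no test, and 72.5% of all genes measured kept one sign on both arrays.

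The reporter genes and marker lists describe what the sorts held. The Lgr5 probe above background had a ratio of -1.83 ± 0.12 (SD, n = 2 arrays), whereas both Lgr6 probes had ratios near 0 (0.05 ± 0.14 and 0.02 ± 0.14) and exceeded background for Lgr6-high RNA on 1 array only, so the Lgr6 transcript gave no check of its label. Of 7 basal keratinocyte markers measured, 3 were called higher in Lgr6-high cells (median 1.82 on array 1 and 0.68 on array 2), as were 6 of 8 suprabasal markers (median 2.15) and 16 of 17 immediate early genes (median 1.96). Called higher in Lgr5-high cells were 4 of 6 fibroblast markers (median -2.36), 3 of 4 endothelial and mural markers (median -1.78), 3 of 3 red blood cell genes (median -1.16) and 12 of 18 cell cycle genes (median -1.27). The remaining endothelial and mural marker, Acta2, leaned the other way at 0.90 ± 0.42 and was not called. Sebaceous gland markers, with 2 of 5 called higher in Lgr6-high cells, had a median of 0.54, and Dct, the only melanocyte marker measured, was called higher in Lgr5-high cells (-1.58). Not measured were all 8 leukocyte markers, the fibroblast marker Pdgfra and the endothelial markers Pecam1, Cdh5 and Kdr. The summed signal of the basal list was 235907 and 122809 in Lgr6-high cells on arrays 1 and 2, against 61890.3 and 125727 in Lgr5-high cells, so that it was higher in Lgr6-high cells on array 1 only; Krt14, Krt15 and Krt5 had negative ratios on array 2. The summed signal of the suprabasal list was 26459 and 21726 in Lgr6-high cells on arrays 1 and 2, against 5547 and 5879 in Lgr5-high cells, and that of the fibroblast list was 872 and 503 against 3348 and 2026. Immediate early genes summed to 116295 and 89947.5 in Lgr6-high cells, against 18687 and 26812 in Lgr5-high cells, and cell cycle genes to 7568 and 6585 against 17516 and 16968. For Lgr6-high RNA, Col3a1, Dcn, Lum, Egfl7 and Dct exceeded background on neither array, and Col1a1, Col1a2 and Ramp2 on 1 array only. So did Ccnb1, Cdk1, Mcm2, Plk1 and Rrm2 of the cell cycle list, on 1 array only. For Lgr5-high RNA, Krt1 exceeded background on neither array, and Lor, Cidea and Scd1 on 1 array only. Ratios and sums of these genes rest on values near background on the dimmer side. The part of the marker lists in the ratios below was not tested. In sorted bulk RNA, fewer cells of a type and less RNA per cell cannot be told apart.

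By the median ratio, the antioxidant genes did not lean to one population as a set. Mt2 and Hmox1 were called higher in Lgr6-high cells, which is 2 of 49 genes (4.08%), beside 7.28% of all genes measured. Prdx4, Sod1, Prdx2 and Gstp1 were called higher in Lgr5-high cells, which is 4 of 49 (8.16%), beside 4.76% of all genes measured. In either direction 12.0% of all genes measured were called. The median ratio of the 49 genes was -0.05, and that of all genes was also -0.05. Ratios ran from -1.39 to 1.42, and 38 of 49 genes (77.6%) kept one sign on both arrays, beside 72.5% of all genes. Of these 38, 17 were higher and 21 lower in Lgr6-high cells. The median and the share with one sign lie close to those of all genes. Against all genes, the share called was larger on the Lgr5-high side and smaller on the Lgr6-high side. These shares come from 4 and 2 genes, too few to describe the set.

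**Figure D1:**
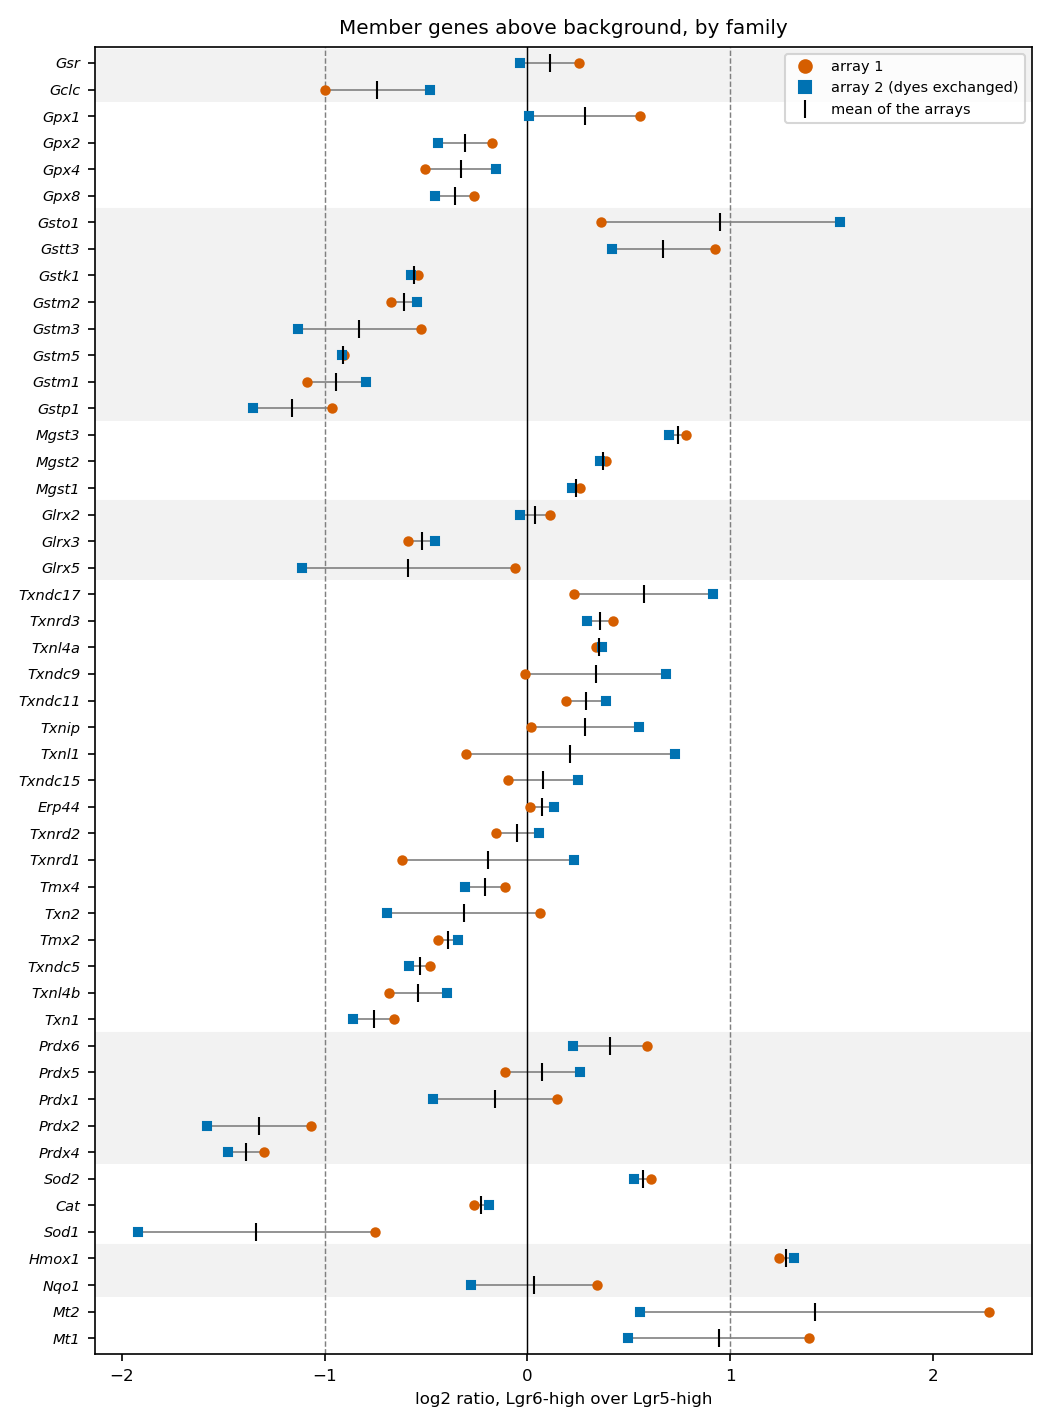
Log2 ratio of Lgr6-high over Lgr5-high (horizontal axis) for the 49 genes above background, in shaded blocks by family. Circles are array 1, squares array 2 with the dyes exchanged, bars their mean, and dashed lines a 2-fold difference. Mt2 and Hmox1 have means above the upper line, and Gstp1, Prdx2, Sod1 and Prdx4 below the lower one.

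The metallothionein genes Mt1 and Mt2 were higher in Lgr6-high cells on both arrays, and Mt2 was called. Mt3 and Mt4, which lie outside the set, were measured and not called. Mt3 had 0.46 on array 1 and -0.74 on array 2, and Mt4 had a ratio of 0.64 ± 0.38. Mt1 and Mt2 encode the widely expressed metallothioneins and lie next to each other on chromosome 8. Both promoters are shown because both genes shared this direction and because metal response elements, the sites of MTF1, are the textbook feature of these genes. The sequences are the 250 bases before each gene start, from RefSeq on build GRCm38.p6, plus strand, at chr8:94172368-94172617 for Mt2 and chr8:94178839-94179088 for Mt1. Capitals mark matches on either strand to the core of the metal response element, searched as TGCACNC or TGCGCNC.
Mt2: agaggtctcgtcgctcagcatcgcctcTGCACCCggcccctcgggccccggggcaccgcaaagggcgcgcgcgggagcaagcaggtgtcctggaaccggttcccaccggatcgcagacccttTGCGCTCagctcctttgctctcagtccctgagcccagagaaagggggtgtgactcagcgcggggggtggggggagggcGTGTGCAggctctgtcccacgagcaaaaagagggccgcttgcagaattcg
Mt1: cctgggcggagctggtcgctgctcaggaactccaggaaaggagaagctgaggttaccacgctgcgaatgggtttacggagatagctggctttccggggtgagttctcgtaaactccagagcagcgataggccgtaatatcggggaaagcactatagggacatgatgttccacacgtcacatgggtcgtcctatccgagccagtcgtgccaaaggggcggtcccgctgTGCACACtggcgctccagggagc
The Mt2 promoter held 3 matches, starting 223, 128 and 50 bases before the gene start, the last of them on the opposite strand, and the Mt1 promoter held 1 match, 23 bases before it. The same core occurred in 21.4% of 32851 mouse promoters in windows of this length and in 20 of 91 promoters (22.0%) of the 67 antioxidant genes, of 79, that had a promoter sequence. Some genes had several promoters whose windows largely overlap, and each was counted, so these promoters are not independent. A match is a description of the letters and not a site of binding. The windows end at the annotated gene start, and bases outside them were not searched, so these are not counts for a whole promoter.

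Mt2 had a normalised signal, in arbitrary units whose ratio equals the log ratio, of 70064 and 32138 in Lgr6-high cells on arrays 1 and 2, against 14445 and 21895 in Lgr5-high cells. Both Lgr6-high values lay above both Lgr5-high values, but the arrays differed in the size of the gap. The ratio was 2.28 on array 1 and 0.55 on array 2, with a mean of 1.42 ± 1.22 (2.67-fold). Mt2 was the only member among the brightest 1% of genes measured, and the median ratio of those 62 genes was itself 0.64 on array 1 and -1.35 on array 2. Against that median, Mt2 was higher by 1.64 on array 1 and by 1.90 on array 2. The scanner software's own ratios of Mt2, which use another normalisation, were 1.59 and 1.77. Under background correction fitted on all spots, outlier-marked ones included, the mean ratio of Mt2 was -0.05, the only reversal of sign among the called genes.

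Mt1 had a signal of 7236 and 4745 in Lgr6-high cells, against 2765 and 3365 in Lgr5-high cells. The ranges did not overlap, and the mean ratio of 0.94 ± 0.63 fell just short of 2-fold. The Mt1 probe was printed in 10 spots, and their ratios averaged 1.39 with a spot SD of 0.26 on array 1 and 0.50 with a spot SD of 0.18 on array 2, so the arrays differed by more than the spots within an array. The scanner's ratios of Mt1 were 1.22 and 1.07. A second Mt1 probe, with ratios of 0.21 on array 1 and 0.68 on array 2, exceeded background on 1 array only in each population and was not used. After centring each gene on the 50 genes nearest in brightness on each side, a step added once the brightest genes had been seen to differ between arrays, Mt1 reached 1.19 ± 0.14 and Mt2 1.73 ± 0.06, and both met the rule.

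Hmox1 was called higher in Lgr6-high cells with close values on both arrays. It encodes heme oxygenase 1, which breaks down heme and is a widely used readout of oxidative stress. Its signal was 298 and 407 in Lgr6-high cells, against 126 and 164 in Lgr5-high cells. The ranges did not overlap, and the ratios of 1.24 and 1.31 gave a mean of 1.28 ± 0.05 (2.42-fold). Nqo1, a quinone reductase and another classic NRF2 target, had a ratio of 0.03 ± 0.44 with opposite signs on the arrays. For Lgr6-high RNA, its probe exceeded background on 1 array only.

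**Figure D2:**
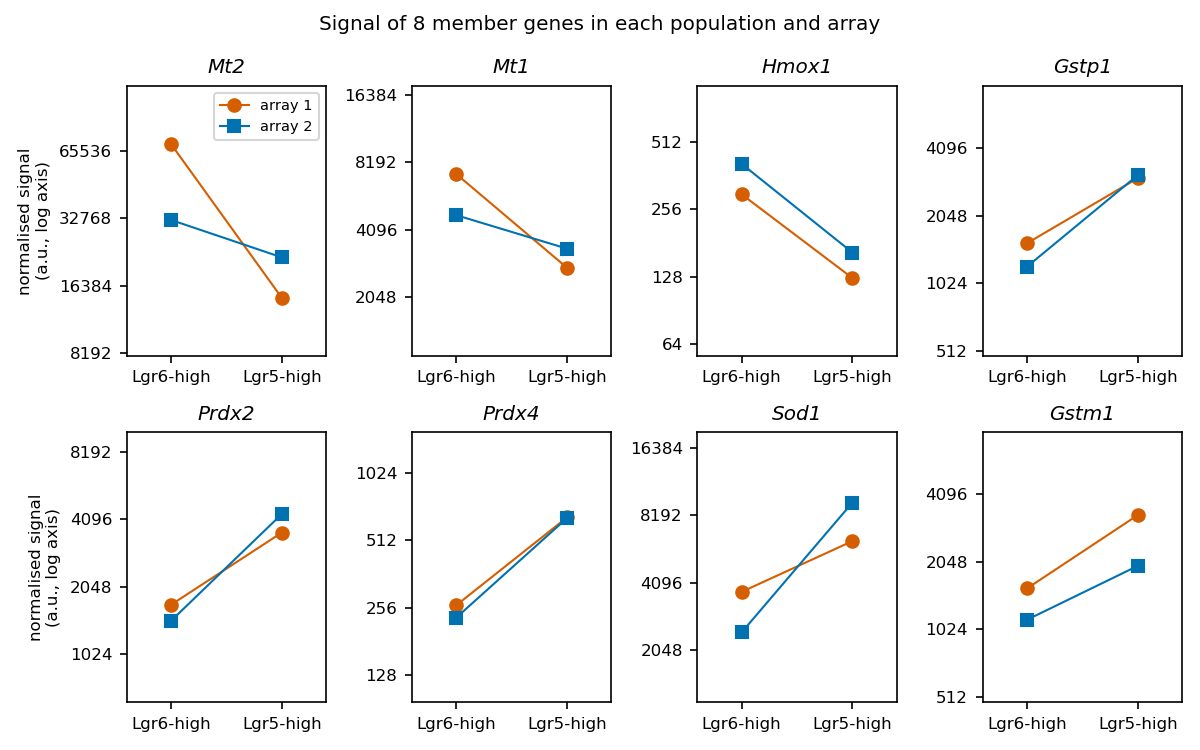
Normalised signal (vertical log axis, arbitrary units) of 8 genes in Lgr6-high cells (left) and Lgr5-high cells (right). Circles and squares are arrays 1 and 2, and lines join the populations hybridised together; each panel has its own range. Mt2, Mt1 and Hmox1 slope down to Lgr5-high cells on both arrays, and the other 5 genes slope up.

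Among the peroxiredoxins, 2 of 5 measured were called, both higher in Lgr5-high cells, beside 4.76% of all genes measured. The family median was -0.16, and 2 of the 5 means were positive. Peroxiredoxins reduce hydrogen peroxide with a reactive cysteine. Prdx4, the form of the endoplasmic reticulum, had a signal of 263 and 232 in Lgr6-high cells, against 649 and 645 in Lgr5-high cells. This was the most negative ratio of the 49 genes, -1.39 ± 0.12, or 2.62-fold lower in Lgr6-high cells. A second Prdx4 probe was not above background in either population on either array. Prdx2, a cytosolic form, had 1703 and 1444 in Lgr6-high cells, against 3574 and 4324 in Lgr5-high cells. Its mean ratio was -1.33 ± 0.36, and all 3 of its probes were negative (-1.33 to -0.96), 1 of them meeting the rule. The other members were not called: cytosolic Prdx1 had -0.16 ± 0.43, Prdx5 0.07 ± 0.26, and Prdx6, which also has phospholipase activity, 0.41 ± 0.26. Prdx3 and the Prdx6 relatives Prdx6b and Prdx6-ps2 were not measured.

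The superoxide dismutases, which turn superoxide into hydrogen peroxide, pointed in opposite directions. Cytosolic Sod1, the copper and zinc enzyme, had a signal of 3729 and 2460 in Lgr6-high cells, against 6280 and 9328 in Lgr5-high cells. The ranges did not overlap, and the ratios of -0.75 and -1.92 gave -1.34 ± 0.83 (2.53-fold lower in Lgr6-high cells). The scanner's ratios for Sod1 were closer together, -1.07 and -1.22. The other Sod1 probes, of which 1 was printed in 10 spots, were not above background in either population on either array. Mitochondrial Sod2, the manganese enzyme, had 971 and 951 in Lgr6-high cells, against 637 and 660 in Lgr5-high cells. Its ranges did not overlap, and its ratio of 0.57 ± 0.06 did not meet the rule. Catalase (Cat), which breaks down hydrogen peroxide in peroxisomes, had -0.23 ± 0.05 from a dim probe, and extracellular Sod3 was not above background.

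The glutathione transferase classes differed in direction. The Gstm, Gstp and Gstk genes measured were lower in Lgr6-high cells on both arrays in 6 of 6 cases, with 1 called, and the Gsto, Gstt and Mgst genes were higher on both arrays in 5 of 5, with none called. Of all genes measured, 38.6% were lower and 33.8% higher in Lgr6-high cells on both arrays. The classes were joined into these groups after the values were seen, so the grouping itself set the uniform direction. The median ratio was -0.87 in the Gstm, Gstp and Gstk genes and 0.67 in the others. Gstp1, the pi-class transferase prominent in epithelia, had a signal of 1543 and 1213 in Lgr6-high cells, against 3010 and 3103 in Lgr5-high cells, a ratio of -1.16 ± 0.28 (2.23-fold lower in Lgr6-high cells). A second Gstp1 probe had -0.94. The mu-class gene Gstm1 had 1559 and 1130 in Lgr6-high cells, against 3310 and 1965 in Lgr5-high cells, and its ratio of -0.94 ± 0.20 missed the rule. The other mu-class genes had ratios of -0.91 ± 0.00 (Gstm5), -0.83 ± 0.43 (Gstm3) and -0.61 ± 0.09 (Gstm2), and mitochondrial Gstk1 had -0.56 ± 0.03.

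Mu-class genes are close relatives clustered on chromosome 3, so the probes are shown, as the first 30 of 60 bases of each, 5′ to 3′ as given in the deposited annotation.
Gstm1: gcctgttcctggtggagtagcctccccagg
Gstm2: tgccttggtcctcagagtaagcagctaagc
Gstm3: tagaaataccctgatggtcaatactatctt
Gstm5: tctcacctatgatgtcttggatcagaaccg
These probes lie on build mm9 at 107815180 to 107815239 (Gstm1), 107784622 to 107784681 (Gstm2), 107766730 to 107766789 (Gstm3) and 107701101 to 107701160 (Gstm5) of chromosome 3. The closest pair, Gstm1 and Gstm2, matched at 31 of 60 bases in the best ungapped placement, and Gstm1 with Gstm5 at 19. Cross-hybridisation was not measured. A second Gstm1 probe was also negative, at -0.39 ± 0.04.

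On the other side, the omega-class gene Gsto1 had a signal of 979 and 1168 in Lgr6-high cells, against 763 and 402 in Lgr5-high cells. The ranges did not overlap, but its ratio, 0.36 on array 1 and 1.54 on array 2, averaged 0.95 ± 0.83 and was not called. The theta-class gene Gstt3 had 0.67 ± 0.36. The 3 microsomal transferases, membrane proteins of which some act on lipid peroxides or leukotrienes, had ratios of 0.74 ± 0.06 (Mgst3), 0.37 ± 0.02 (Mgst2) and 0.24 ± 0.03 (Mgst1). The scanner's ratios of the same probes were wider apart between arrays, at 1.33 ± 0.54 for Mgst3, 0.86 ± 0.11 for Mgst2 and 0.66 ± 0.59 for Mgst1, and Mgst1 exceeded background for Lgr5-high RNA on 1 array only. Of 20 cytosolic and mitochondrial transferase genes 12 were not measured, among them all 4 alpha-class genes.

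None of the measured genes of glutathione synthesis and reduction, the glutathione peroxidases and the glutaredoxins was called. Gclc, the catalytic subunit of the rate-limiting enzyme of glutathione synthesis, had a ratio of -0.74 ± 0.37 from a probe that exceeded background for Lgr6-high RNA on 1 array only, and its partner Gclm was not measured. Gsr, which returns oxidised glutathione to the reduced form, had 0.11 ± 0.20. Of the 4 glutathione peroxidases measured, Gpx1, the cytosolic enzyme, had a signal of 6336 and 5235 in Lgr6-high cells, against 4306 and 5212 in Lgr5-high cells, and a ratio of 0.28 ± 0.39. Gpx4, which reduces lipid peroxides in membranes, had -0.33 ± 0.25, Gpx8 -0.36 ± 0.14 and Gpx2 -0.31 ± 0.19. The glutaredoxins, which remove glutathione from proteins or carry iron-sulfur clusters, had ratios of -0.59 ± 0.74 (Glrx5), -0.52 ± 0.10 (Glrx3) and 0.04 ± 0.11 (Glrx2).

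The thioredoxin family was the largest, with 17 of 25 genes measured and none called. Its median ratio was 0.07 and its range -0.76 to 0.57. Cytosolic thioredoxin Txn1 had the lowest ratio of the family, with signals of 276 and 248 in Lgr6-high cells, against 434 and 449 in Lgr5-high cells. The ranges did not overlap, and the ratio was -0.76 ± 0.14. Mitochondrial Txn2 had -0.32 ± 0.53 and the thioredoxin reductases Txnrd1, Txnrd2 and Txnrd3 had -0.19 ± 0.60, -0.05 ± 0.15 and 0.36 ± 0.09. Txnip, which binds and blocks thioredoxin, had 0.28 ± 0.38. Txndc17, a small cytosolic thioredoxin-like protein, had the highest ratio of the family, 0.57 ± 0.48. Txndc5 and Tmx2, of the endoplasmic reticulum, had -0.53 ± 0.07 and -0.39 ± 0.07, while Erp44 of the same compartment had 0.07 ± 0.08. In this family 6 genes were positive and 5 negative on both arrays. Txnl4a was the only one of 8 genes with several passing probes whose probes differed in sign (-0.18 to 0.35).

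How many of these genes passed the rule differed between ways of processing. By the scanner software's ratios, 6 genes were called higher in Lgr6-high cells and 13 higher in Lgr5-high cells, beside 15.5% of all genes in each direction by those ratios. All 6 called genes were among these 19. The mean ratio had the same sign by both methods in 47 of 49 genes, the exceptions Glrx2 and Prdx5 lying near 0. The gap was widest for Gclc, at -2.51 ± 1.82 by the scanner against -0.74 ± 0.37 here, and for Txndc5, at -1.75 ± 0.24 against -0.53 ± 0.07. Both are among the 9 genes for which 1 population was above background on 1 array only. By construction, the offset of 50 added here before taking logs pulls the ratios of dim probes toward 0.

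**Figure D3:**
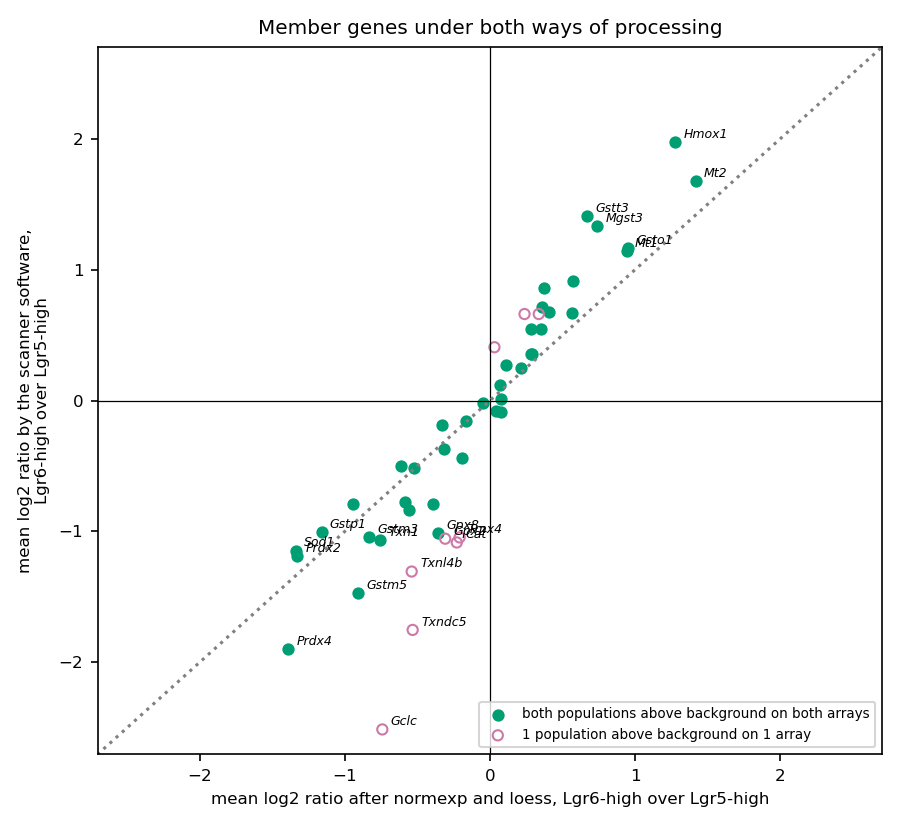
Mean log2 ratio of Lgr6-high over Lgr5-high for the 49 genes after normexp and loess (horizontal axis) and by the scanner software (vertical axis). Filled points are the 40 genes above background in both populations on both arrays, open points the other 9, and the dotted line marks equal values. Dim genes such as Gclc and Txndc5 lie far below the line, and Glrx2 and Prdx5 are the pair whose signs differ.

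The calls changed with the processing more often than the sign of the mean did. In 5 alternatives that computed the ratio anew from both arrays, 13 of 245 mean ratios over the 49 genes changed sign, and Mt2 was the only called gene among them. Without background subtraction Hmox1 and Mt2 missed the rule at 0.86 and 0.98. On array 1 alone Sod1 had -0.75 and Gstp1 -0.96, and on array 2 alone Mt2 had 0.55, each short of 2-fold. With background correction fitted on all spots Hmox1 had 0.76 and Prdx4 -0.89, and centring on genes of like intensity gave Gstp1 -0.85, also short of it. Median centring in place of loess called none of the 49 genes. All 6 called genes then had opposite signs on the arrays: Mt2 had -0.72 on array 1 and 3.62 on array 2, Hmox1 -0.00128 and 3.01, Gstp1 -3.33 and 1.07, Prdx2 -3.47 and 0.90, Sod1 -3.31 and 0.72, and Prdx4 -3.10 and 0.43. Their mean signs under this setting therefore rest on averaging both dye orientations.

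**Figure D4:**
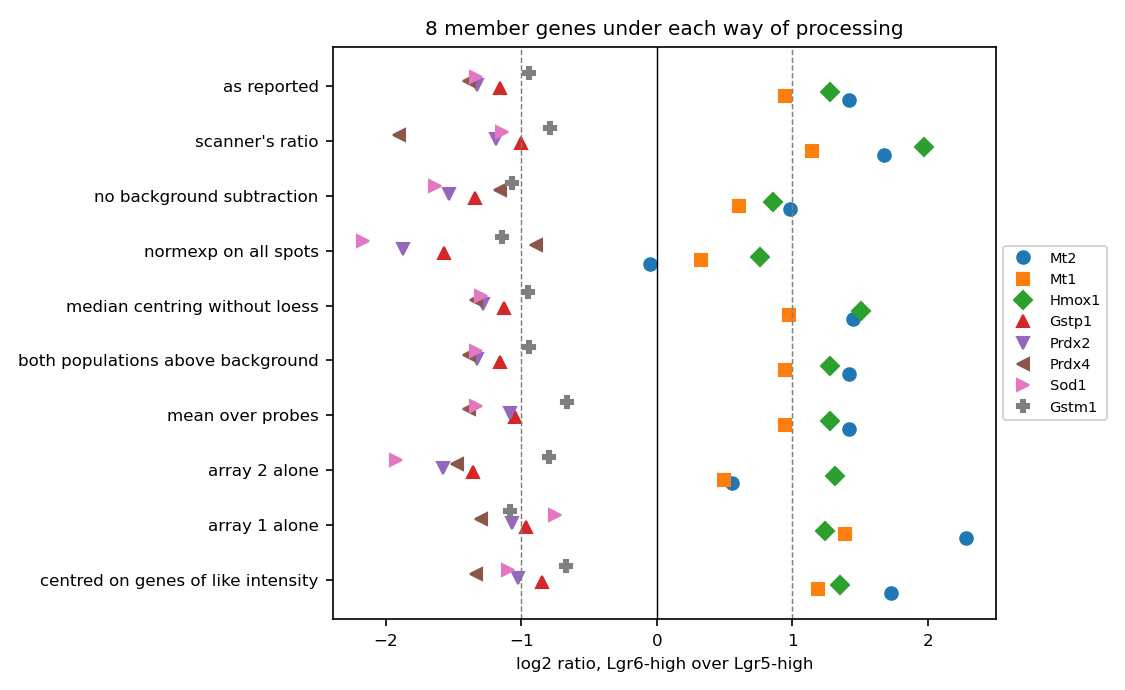
Log2 ratio of Lgr6-high over Lgr5-high (horizontal axis) of 8 genes under each way of processing (rows); dashed lines mark a 2-fold difference. Points are means over the arrays, or 1 array where stated. The symbol of Mt2 crosses 0 in the row for background correction fitted on all spots, and no other symbol crosses it.

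Genes around these systems were described from a list of 84, of which 54 were measured. Of these, 8 (14.8%) were called higher in Lgr6-high cells, beside 7.28% of all genes, and 3 (5.56%) higher in Lgr5-high cells, beside 4.76%. Sesn2, a stress-induced sestrin that restrains mTORC1, had a signal of 2291 and 2027 in Lgr6-high cells, against 399 and 241 in Lgr5-high cells, and the highest ratio of the list, 2.80 ± 0.39. Hagh, which releases glutathione in the detoxification of methylglyoxal, had 2.09 ± 0.18. Among regulators of NRF2 and its relatives, Sqstm1, the autophagy receptor that sequesters KEAP1, had 1.60 ± 0.61, the NRF2 relative Nfe2l1 1.28 ± 0.01 and the small partner Maff 1.04 ± 0.24. Nfe2l2, the gene of NRF2 itself, had -0.37 on array 1 and 1.53 on array 2, so its direction was not settled. Its probe exceeded background for Lgr6-high RNA on 1 array only. Osgin1, an NRF2 target, had 1.29 ± 0.31, the gamma-glutamyl transferase relative Ggt6 1.12 ± 0.29 and the aminopeptidase Anpep 1.02 ± 0.18. The Anpep probe exceeded background for Lgr5-high RNA on 1 array only.

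Called higher in Lgr5-high cells were Lap3, a leucine aminopeptidase that can cleave cysteinylglycine, at -2.35 ± 0.22, Park7, a redox-sensitive chaperone, at -1.53 ± 0.64, and the copper chaperone Atox1 at -1.38 ± 0.39. Atox1 had a signal of 1455 and 1365 in Lgr6-high cells, against 3139 and 4298 in Lgr5-high cells. Of the NADPH suppliers, which feed both reductase systems, 6 of 6 measured had negative means (median -0.33) and none was called. Among all genes measured, 3317 of 6193 had negative means. Pgd had opposite signs on the arrays (0.02 and -0.32), and Idh2, Nnt and Pgd exceeded background for Lgr6-high RNA on 1 array only. None of 9 oxidant-producing genes, such as the NADPH oxidases, was measured. The antioxidant response core, searched as TGACNNNGC on both strands, occurred in 14 of 91 promoters of the antioxidant genes (15.4%) and in 10.2% of all promoters in windows of 250 bases. Overlapping windows of one gene were again counted separately, and Hmox1, Gclc and Gsr had no promoter sequence. The difference between these shares was not tested.

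**Figure D5:**
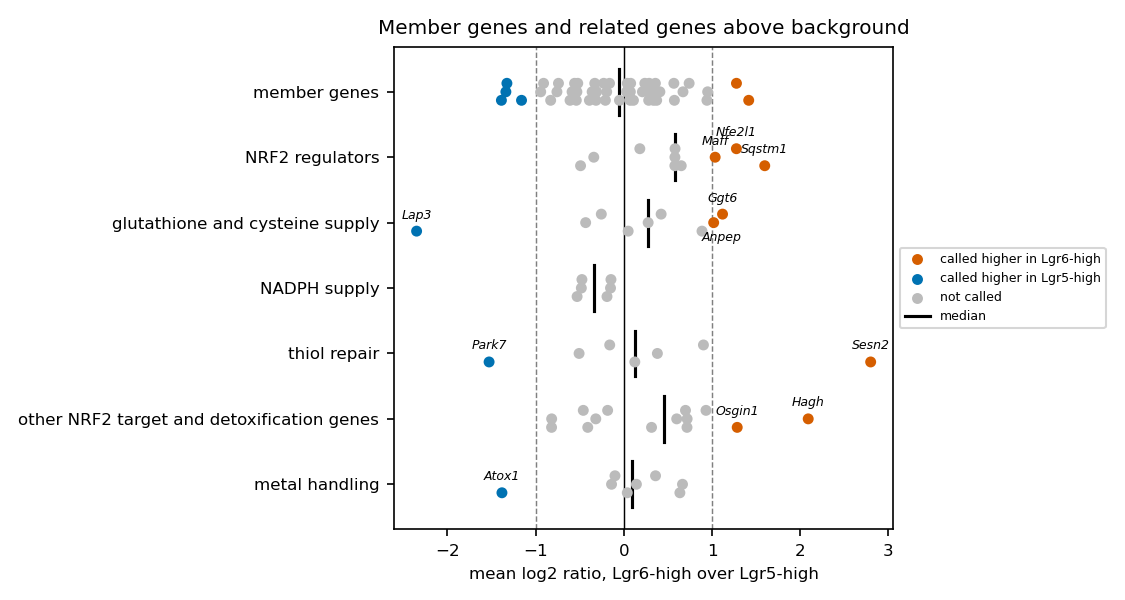
Mean log2 ratio of Lgr6-high over Lgr5-high (horizontal axis) of the antioxidant genes (top row) and of related genes by role. Each point is 1 gene above background, coloured by its call, black bars are medians and dashed lines a 2-fold difference. The antioxidant genes centre on -0.05 and NRF2 regulators on 0.58, and Sesn2 lies farthest to the right.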

How the data were processed

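RNA of Lgr6-high and Lgr5-high cells was measured on 2 two-colour Agilent arrays with exchanged dyes. The authors deposited, per array, the linear intensity of each spot and its local background in both channels, and the scanner's log10 ratio of Cy5 over Cy3. Per the file headers, intensities came from Feature Extraction 10.5.1.1, while the submitters' processing notes name 9.5.3. The deposited value table equals the scanner's log10 ratios, with the sign turned on array 2 (largest difference 4.997e-06), and the median of each column was 0, so it runs as Lgr6-high over Lgr5-high. Probe positions are on mm9.

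From the deposited intensities, log2 ratios were computed with limma 3.58.1 in R 4.3.3: normexp (offset 50, fitted on spots without outlier marks), loess within each array with controls at weight 0, and the mean over spots of a probe. Signals by population are after loess and Aquantile scaling. Each array had 45018 spots, 1639 of them controls; the 139 (array 1) and 204 (array 2) probe spots with outlier marks were dropped, and none was saturated. On array 1, 15.3% of probe spots exceeded background for Lgr6-high RNA and 31.6% for Lgr5-high RNA, and on array 2, 33.3% and 16.2% did. The lower share was that of the Cy5 channel on both arrays. Where a population exceeded background on 1 array only, its level therefore cannot be told apart from the dye. Scanner ratios of Cy5 over Cy3 correlated at -0.447 between arrays, the sign that exchanged dyes give. A gene took its brightest passing probe. Probes were named through a RefSeq table of GRCm38.p6 (25263 by accession, 6233 by symbol, 1603 by synonym, 1549 by the file's name, 6526 unnamed), and promoters came from RefSeq.

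Called genes of the set are named with all values, other measured genes with mean and SD or by family, and the called genes of the related list. The genes and lists were chosen with earlier results of these data known. The number of arrays limits precision. Both arrays lie on 1 slide, so slide could not differ between populations. Alternatives were scanner ratios, the value table, other background and centring choices, filters, probe means, each array alone, limma on both arrays, and centring on genes of like intensity, the last added after seeing the data. The call rule and limma were tested on simulated gene ratios, which did not pass through background correction or normalisation.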

Additional observations from a re-analysis of the deposited data

How the results depend on the processing

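The called genes of the set were 2 higher in Lgr6-high and 4 higher in Lgr5-high cells, against 451 and 295 of all genes and 8 and 3 related genes. The scanner's ratios and the authors' deposited value table each gave 6 and 13, 958 and 957, and 19 and 10. Without background subtraction, 0 genes of the set, 212 of all genes and 2 related genes were higher in Lgr6-high cells. With normexp fitted on all spots the counts were 0 of the set, 124 of all genes and 2 related genes higher in Lgr6-high cells, 151 of all genes fell on the Lgr5-high side, and the ratio of Mt2 reversed to -0.052. Median centring without loess gave 0 and 0 of the set, 134 and 57 of all genes, and 0 and 0 related genes. The share of all calls that were higher in Lgr6-high cells was 60.5% as reported, 50.03% by the scanner, 51.0% without background subtraction, 45.1% with normexp on all spots and 70.2% with median centring. The cause was not tested.

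The median ratio of the set was -0.05 as reported, -0.00526 with median centring, 0.0166 with no filter on dim probes, 0.0555 with both populations above background and -0.00399 when centred on genes of like intensity. With each array alone it was between -0.0969 and -0.0353, and genes called higher in Lgr5-high cells numbered 314 to 470. In the 5 alternatives that computed ratios anew from both arrays, 85 of 245 mean ratios moved by at least the SD between arrays and 13 changed sign, 1 of them that of a called gene (Mt2). The other alternatives repeat the reported value, the scanner's ratio or 1 array for most genes, and add nothing to this count. By limma (Benjamini-Hochberg adjusted p under 0.05 with the 2-fold minimum), 2 and 4 genes of the set, 458 and 302 of all genes and 8 and 3 related genes were called; these p-values take the 2 arrays as replicates, so they may hold technical error alone.

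With 1 replicate per population, no animal-to-animal spread is known. Each array carries both populations, so every ratio is already a difference within an array, and no fit without that pairing was made. Signal over background limited the 9 genes for which 1 population was above background on 1 array only. That population was Lgr6-high for 7 genes and Lgr5-high for 2. A further 30 genes of the set were not measured, 17 of them with no probe above background on any array.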
